A study of Mus musculus with 6 samples.

Results

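The genes that encode the proteasome and the molecular chaperones were described in mouse embryonic fibroblasts (MEFs) with 1 or 2 working copies of Nipbl, the gene of the cohesin loading factor NIPBL. Members were chosen by gene name (the Psm, Cct, Hsp, Dnaj, Bag and Pdia families with Calr, Canx, Hyou1, Tcp1 and Stip1, leaving out names marked as pseudogenes), and 71 genes annotated on the minus strand met the rule, of 38483 genes listed in all and 19269 on the minus strand. They carry 70 distinct names, since Hspa14 is listed under 2 gene identifiers. Another 77 genes with such names lie on the plus strand, where every gene was listed at 0 in every culture, and among them are Hspa5, Hspa8, Hyou1, Pdia3, Pdia6, Hspe1, Bag3, Dnajb1, Dnajc3, Psmb8, Psmd14 and Psme4. Nothing could be measured for those genes here, so each complex below is seen through the part of its subunits that is encoded on the minus strand.

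RNA-seq of 3 WT and 3 Nipbl+/- cultures of the CD1 strain, all at passage 3, was analysed. The MEFs came from mid-gestation embryos of one pregnant mouse after removal of limbs, brain and internal organs, and the Nipbl+/- cells keep 1 intact Nipbl allele. Whether each culture came from a different embryo is not stated in the sources used here, and p-values then measure the spread between these cultures. Total counts lay between 20307454 and 25990783 per culture, and Nipbl itself was at 128, 145 and 135 TMM-normalized CPM (counts scaled to library size) in WT replicates 1, 2 and 3 against 101, 101 and 100 in the Nipbl+/- replicates, with a log2 fold change of -0.43 (SE 0.06, Benjamini-Hochberg adjusted p = 0.0213, edgeR's quasi-likelihood test). All 5 fibroblast markers of the minus strand (of a list of 20) were expressed, and none of the 5 passed the test. Their summed levels, mostly Fn1, lay between 20500 and 23864 CPM. Of the 5, 4 had a fold change below 0 (median log2 fold change -0.11). For 2 of the 5 all Nipbl+/- cultures lay below all WT cultures, as for 10.8% of all tested genes. Summed levels of the endothelial, epithelial, skeletal muscle and neural markers lay at 69.3 to 104, 11.5 to 15.8, 239 to 342 and 8.41 to 12.8 CPM over the 6 cultures, again with 0 genes called in each list. Only 3, 3, 2 and 2 genes of these lists could be tested, and a single gene made up most of each sum (Flt1, Krt19, Acta1 and Gap43). The number of these marker genes with an unadjusted p under 0.05 was 3 for fibroblast, 2 for epithelial, 1 for neural and 0 for endothelial and skeletal muscle. Of all tested genes, 16.9% had such a p, 1.04% were called higher and 0.916% were called lower.

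The 26S proteasome is the protease that destroys proteins tagged with ubiquitin. Its 20S core is a barrel of alpha (Psma) and beta (Psmb) subunits in equal numbers, and its 19S cap is made of ATPases (Psmc) and other subunits (Psmd) that bind, unfold and feed in the substrate. Molecular chaperones help proteins reach or keep their fold. HSP70 and HSP90 are ATP-driven machines that work with J proteins (Dnaj), which deliver substrates to HSP70, and with exchange factors such as the Bag proteins, while the chaperonin TRiC (Cct) folds actin and tubulin in a closed chamber. The endoplasmic reticulum (ER) has its own set for secreted proteins, which fibroblasts make in quantity as collagen and fibronectin. Cytosolic chaperones are classic targets of heat shock factor, and ER chaperones of the unfolded protein response.

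Of the 71 members, 19 belong to the proteasome, 33 to the cytosolic chaperones and their partners, 11 to the ER and 8 to other places (6 mitochondrial, 1 nuclear, and Psmc3ip, a recombination protein that shares only the letters of the name). A filter on low counts left 66. The 5 others were Dnajb7, at 0 counts in every culture, Cct6b, at 3 to 16 counts, and Pdia2, Dnajb13 and Hspb3, at 0 to 5 counts. These 5 are known from testis, pancreas or muscle rather than from fibroblasts.

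Compared per length, in the length-scaled read counts (RPKM) that the authors deposited, 3 ER chaperone genes, both cytosolic HSP90 genes and Cct2 had the highest levels, while the other ER members ranked lower, from 155 for Pdia4 downward. Calreticulin (Calr), a lectin chaperone of the ER lumen, had the highest mean over the 6 cultures at 613 RPKM. Cytosolic HSP90 beta (Hsp90ab1) followed at 581, then the ER HSP90 Hsp90b1 (also called GRP94) at 404 and calnexin (Canx), the membrane-bound relative of calreticulin, at 383. Next came the chaperonin subunit Cct2 at 377 and the inducible cytosolic HSP90 alpha (Hsp90aa1) at 360. The highest proteasome gene was the 19S subunit Psmd8 at 319, and the highest mitochondrial chaperone was the matrix HSP70 Hspa9 at 297. This order depends in part on the gene lengths used for scaling.

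Deposited RPKM of subunits that sit in the same complex spread over several fold, which depends in part on the gene lengths used for scaling. The 6 constitutive 20S core genes ran from 68.98 RPKM for Psma7 to 284 for Psmb1, a ratio of 4.12, and the 4 non-ATPase 19S genes from 56.3 for Psmd4, a ubiquitin receptor, to 319 for Psmd8, a ratio of 5.67. Without length scaling, mean WT levels were 217 CPM for Psma7 and 306 for Psmb1, and 162 for Psmd4 and 505 for Psmd8. Psmb1 has the longer transcript of the first pair (1970 bases against 1157), yet the gap to Psma7 is wider in RPKM than in CPM. The scaling thus used other lengths than these, and the RPKM ratio is not a ratio of transcript numbers. The lone 19S ATPase, Psmc4, was at 76.7. Immunoproteasome subunits, which replace the core's catalytic subunits in immune cells and under interferon, were far lower, with Psmb10 at 11.3 and Psmb9 at 0.169. Heat-inducible HSP70 genes were low too, at 3.38 for Hspa1a and 4.52 for Hspa1b, next to 120 for the constitutive HSP110 relative Hspa4.

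**Figure D1:**
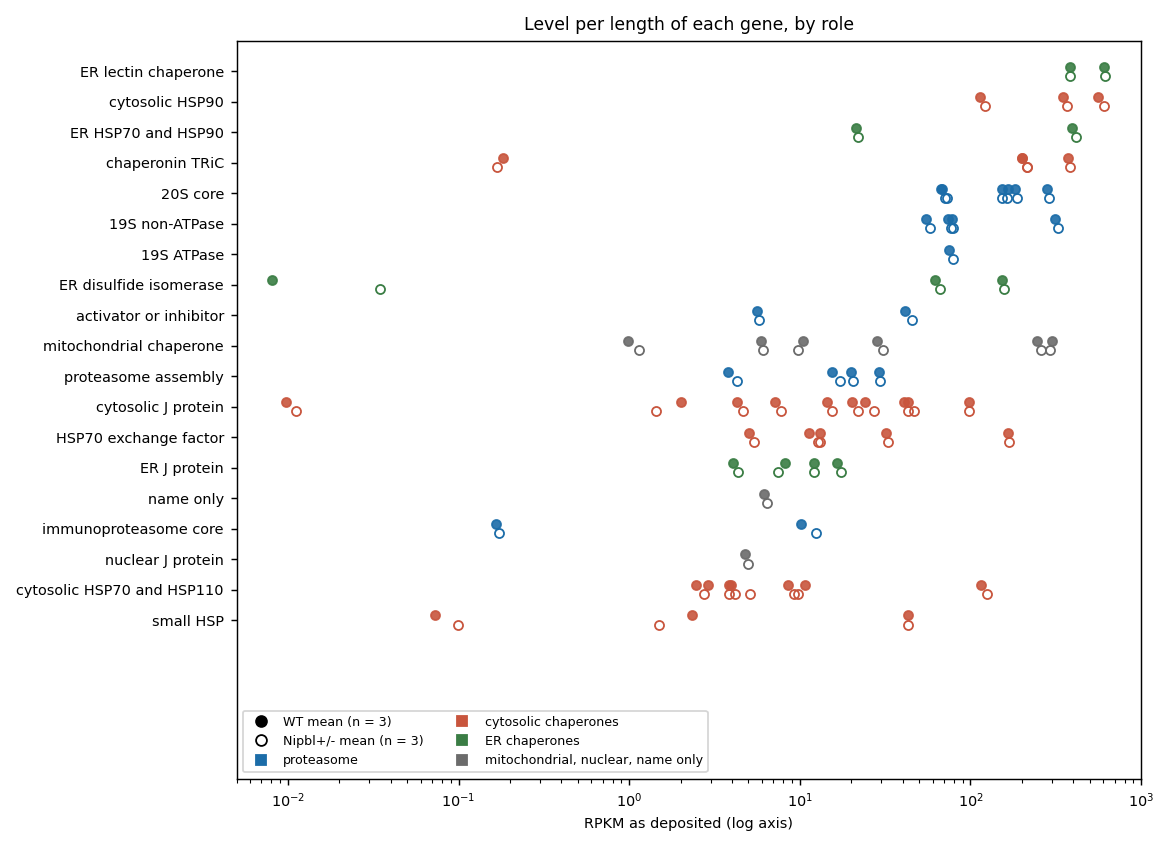
Mean RPKM of each gene in WT (filled points, n = 3) and Nipbl+/- cultures (open points, n = 3) on a log axis, by the role of the protein, with Dnajb7, listed at 0, left out. ER lectin chaperones and cytosolic HSP90 lie at the top, the inducible HSP70 and immunoproteasome genes far below the constitutive 20S core, and filled and open points of a gene lie close together at most levels.

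Nipbl+/- cultures were then compared with WT cultures, in a study that followed PKR stress signalling and protein synthesis in cells with NIPBL mutations. No member was called. In edgeR's quasi-likelihood test, at a threshold of 0.05 on p-values adjusted by Benjamini-Hochberg over 9061 genes, 0 of 66 members were higher, where 1.04% of all tested genes were, and 0 were lower, where 0.916% of all were. The smallest adjusted p of a member was 0.255. One member (1.52%), Psmb10, had an unadjusted p under 0.05 in this test, compared with 16.9% of all tested genes. DESeq2 called 0 members, although 1 member had no adjusted p there and could not be called. It had 0 members with an unadjusted p under 0.05, compared with 13.5% of all genes in that test. The exact test of edgeR called 0 members and had 3 (Dnajb3, Hspb2 and Psmb10), compared with 14.2% of all genes.

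The fold changes of members were also small. The median size of a member's log2 fold change was 0.05, against 0.11 over all tested genes, and the median SE was 0.06 against 0.10. The median SD of log2 CPM between cultures of a genotype was 0.07 over members and 0.12 over all tested genes, and the median of the average log2 CPM was 6.51 for members and 4.47 for all, so members were also read more deeply. The 95% interval of the fold change lay inside 1.5-fold in both directions for 60 of 66 members (90.9%) and for 68.4% of all tested genes. The exceptions were Hspa1a, Hspa1b, Dnajb3, Hspb2, Dnajc28 and Psmb9. For these 6 a change of 1.5-fold could not be told from none at this depth and number of cultures.

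Fold changes were above 0 for 44 members and below 0 for 22, with a median of 0.03 on the log2 scale beside -0.01 over all tested genes. By compartment, the median was 0.02 for the proteasome (12 of 19 above 0), 0.05 for the cytosolic chaperones (21 of 29) and 0.00 for the ER chaperones (6 of 10). The 8 other genes had a median of 0.02 (5 above 0). These medians lie within 0.06 of each other on the log2 scale and describe genes of the same 6 cultures, not replicates.

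**Figure D2:**
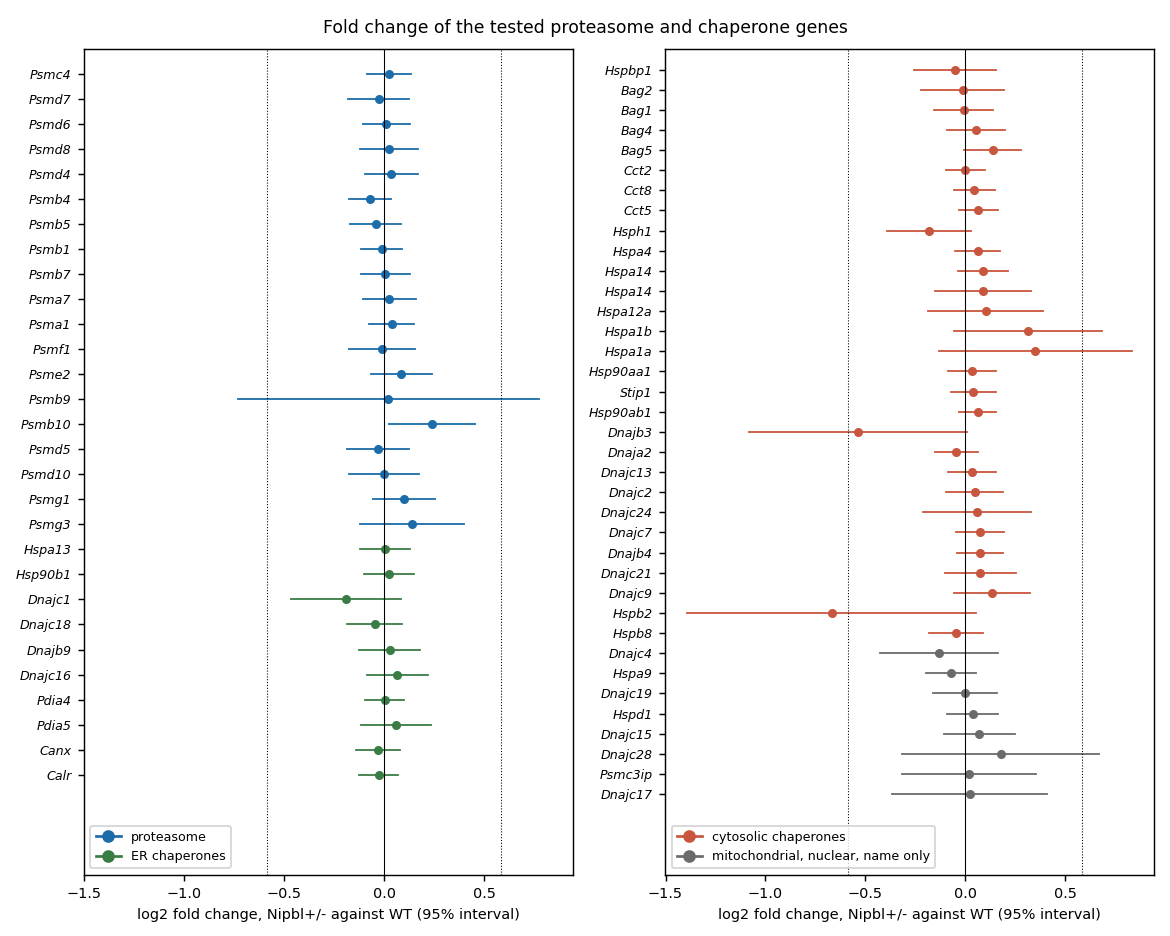
Log2 fold change of each of the 66 tested members (point) with its 95% interval (line), in Nipbl+/- against WT cultures (3 each), where dotted lines mark 1.5-fold. Points gather around 0, from -0.67 for Hspb2 to 0.35 for Hspa1a, and 60 intervals end inside the dotted lines.

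Summed levels of the compartments were compared in the same way. Proteasome genes summed to 2774, 2785 and 2652 CPM in WT replicates 1, 2 and 3 and to 2781, 2735 and 2732 in the Nipbl+/- replicates. Cytosolic chaperones summed to 7784, 8147 and 7775 CPM in WT and to 7885, 8280 and 8194 in Nipbl+/- cultures. ER chaperones summed to 5998, 6407 and 6399 CPM in WT and to 6262, 6288 and 6098 in Nipbl+/- cultures. The genotypes overlapped in all 3 sums. The share of a culture's counts on all members was 1.80% at the lowest and 1.96% at the highest.

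Within the proteasome, the constitutive core showed no shared direction, since 3 of 6 genes were above 0 and 3 below, between -0.07 and 0.04. Psmb4, a structural beta subunit, was at 244, 242 and 239 CPM in WT and 236, 223 and 232 in Nipbl+/- cultures. Each Nipbl+/- value was thus below each WT value, at a log2 fold change of -0.07 (SE 0.05, adjusted p = 0.494 in the quasi-likelihood test). It was the only member of the 66 whose cultures separated in that direction, which 10.8% of all tested genes did. Psmb5, which carries the chymotrypsin-like active site blocked by the drug bortezomib, was at 147, 140 and 135 against 141, 131 and 138 CPM (log2 fold change -0.04). The genotypes overlapped for Psmb5, and 57.1% of the 50-base stretches of its transcript also occur in other genes, so reads could be shared with pseudogenes. The cap subunits moved as little, from -0.03 for Psmd7 to 0.04 for Psmd4, and Psmc4 was at 0.03.

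Psmb10, the immunoproteasome subunit that takes the place of Psmb7, was at 14.3, 12.4 and 14.1 CPM in WT and at 15.1, 16.4 and 16.7 in Nipbl+/- cultures. All Nipbl+/- values lay above all WT values, with a log2 fold change of 0.24 (SE 0.09, 95% interval 0.02 to 0.46). Its adjusted p was 0.255 in the quasi-likelihood test, so it was not called. Psmb7 itself, the constitutive counterpart, was at 232, 243 and 222 against 242, 227 and 232 CPM. In RPKM, Psmb10 stood at 5.61% ± 0.641 (SD, n = 3) of Psmb7 in WT and 6.59% ± 0.536 (SD, n = 3) in Nipbl+/- cultures, and the lowest Nipbl+/- share (5.97%) lay under the highest WT share (6.06%). Psmb9, a second immunoproteasome subunit, had 10 to 20 counts in a culture, with a log2 fold change of 0.02 and an interval from -0.73 to 0.77. Psme2, a subunit of the interferon-inducible PA28 cap, was at 78.0, 70.1 and 82.1 against 85.2, 79.2 and 79.6 CPM (0.08), and 59.3% of its stretches occur in other genes, mainly Psme2b.

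Markers of macrophages, a cell type rich in immunoproteasome, summed to more in each Nipbl+/- culture than in any WT culture. Over 12 tested markers of the minus strand (of a list of 20) the sum was 91.8, 73.0 and 76.7 CPM in WT and 130, 203 and 105 in Nipbl+/- cultures. Of the 12, 11 had a fold change above 0, with a median log2 fold change of 0.99, and none was at 0 counts. An unadjusted p under 0.05 was found for 10, beside 16.9% of all tested genes. Of the 12, 0 were called, where 1.04% of all tested genes were called higher. All Nipbl+/- cultures lay above all WT cultures for 6, as for 12.0% of all tested genes. The part of these markers in the Psmb10 values was not tested. In bulk RNA, more cells of a type and more RNA per cell cannot be told apart.

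**Figure D3:**
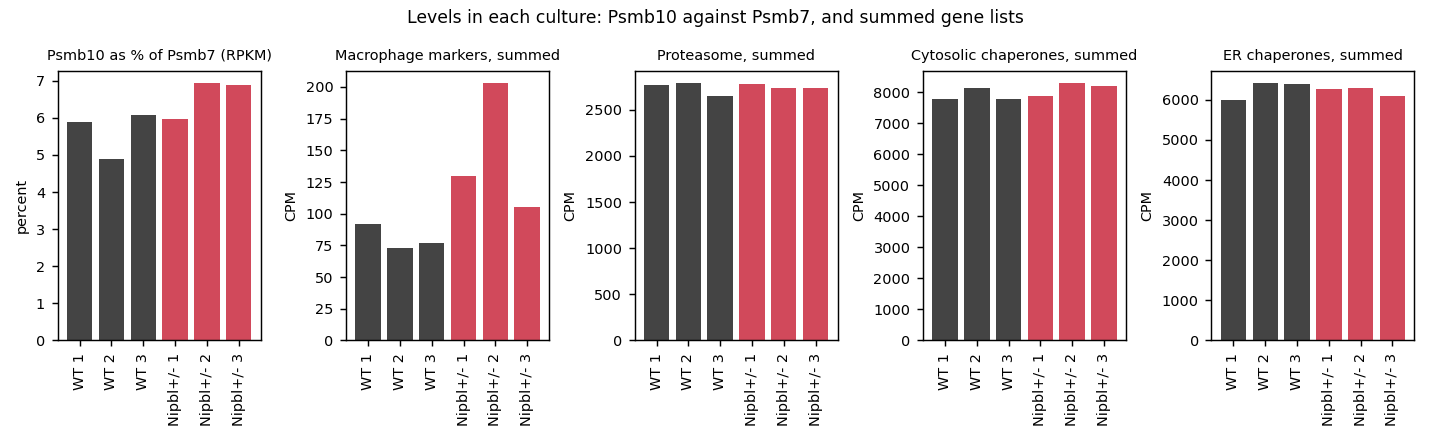
Bars give 1 value for each of the 6 cultures (WT dark, Nipbl+/- red): Psmb10 as a percent of Psmb7 in RPKM, and summed CPM of macrophage markers, proteasome, cytosolic chaperone and ER chaperone genes. The macrophage markers run from 73.0 to 91.8 CPM in WT and from 105 to 203 in Nipbl+/- cultures, while the 3 sums of proteasome and chaperone genes overlap between genotypes.

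The inhibitor Psmf1 (PI31), at -0.01, and the 4 assembly chaperones were not called either. Psmd5, which helps place the ATPase ring, was at 104, 109 and 102 CPM in WT and 98.1, 98.3 and 112 in Nipbl+/- cultures (-0.03). Psmg3 was at 11.3, 11.4 and 11.9 against 14.5, 11.4 and 12.3 CPM (log2 fold change 0.14, SE 0.11), and 22.7% of its stretches occur in another gene. Psmg1, a partner in the pair that starts the alpha ring, was at 21.4, 22.9 and 21.3 against 23.4, 23.2 and 23.6 CPM, which are separate by a narrow gap (0.10, SE 0.07, adjusted p = 0.505 in the quasi-likelihood test).

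Besides Psmb10 and Psmg1, the members whose Nipbl+/- cultures all lay above the WT cultures were Cct5, Bag5 and the longer Hspa14 entry. These are 5 of 66, while 12.0% of all tested genes separated in that direction. Cct5, a TRiC subunit, was at 593, 592 and 583 CPM in WT and 600, 619 and 632 in Nipbl+/- cultures (0.07, SE 0.04, adjusted p = 0.477). Bag5, an exchange factor for HSP70, was at 28.7, 30.8 and 29.9 against 31.7, 33.6 and 32.9 CPM (0.14, SE 0.06, adjusted p = 0.310). Hspa14, a ribosome-associated HSP70, was at 67.0, 74.8 and 74.0 against 75.0, 76.3 and 77.8 CPM (0.09, adjusted p = 0.471), and its second entry, which shares exons with the first, overlapped between genotypes. These adjusted p-values are from the quasi-likelihood test.

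**Figure D4:**
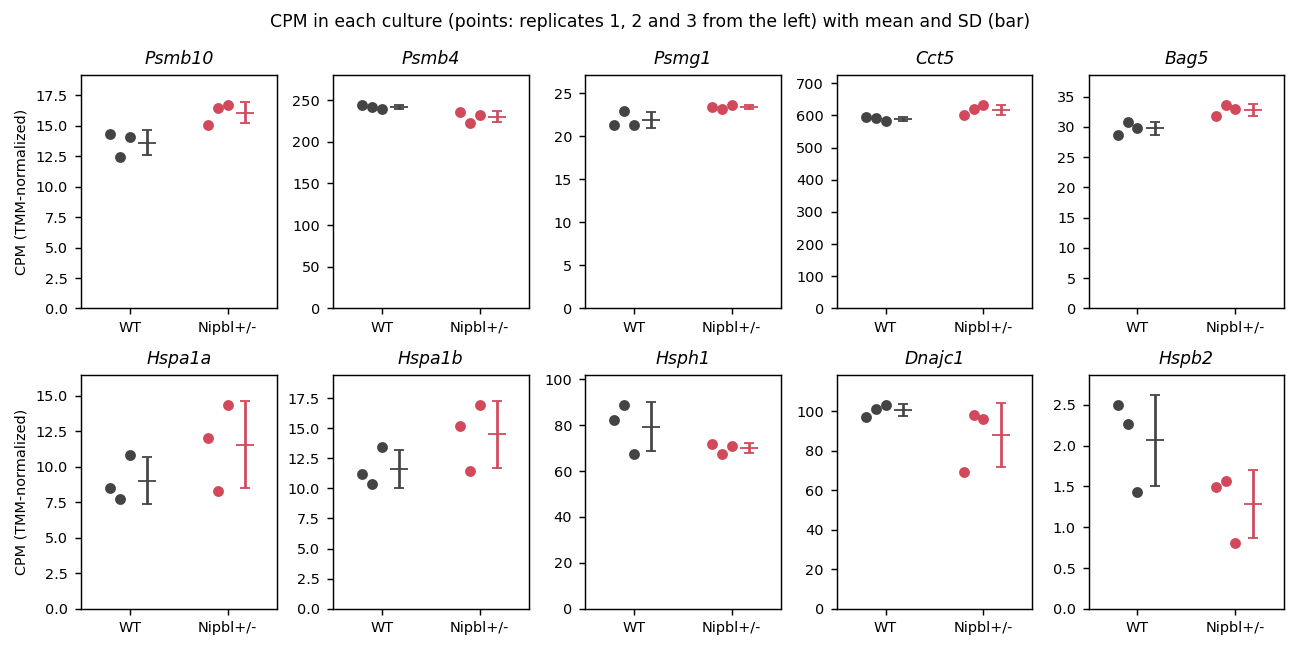
CPM of 10 members in each culture (points, replicates 1, 2 and 3 from the left) with the mean and SD of 3 cultures (bars), on axes that start at 0. Psmb10, Psmg1, Cct5 and Bag5 separate upward and Psmb4 downward by narrow gaps, while Hspa1a, Hspa1b, Hsph1, Dnajc1 and Hspb2 overlap between genotypes.

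Cytosolic HSP90 genes overlapped between genotypes. Hsp90ab1 was at 1742, 1817 and 1736 CPM in WT and 1808, 1872 and 1848 in Nipbl+/- cultures, with a log2 fold change of 0.06 and an interval from -0.03 to 0.16. Hsp90aa1 was at 1405, 1543 and 1396 against 1424, 1508 and 1510 CPM (0.03), although 58.5% of its stretches are shared with pseudogenes. Stip1 (HOP), which hands clients from HSP70 to HSP90, was at 253, 262 and 268 against 265, 263 and 277 CPM (0.04). The 3 TRiC subunits tested lay between 0.00 for Cct2 and 0.07 for Cct5.

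Stress-inducible HSP70 had the highest fold changes of all members. Hspa1a was at 8.53, 7.70 and 10.9 CPM in WT and 12.0, 8.29 and 14.3 in Nipbl+/- cultures (0.35, SE 0.21, adjusted p = 0.448 in the quasi-likelihood test). Hspa1b was at 11.2, 10.4 and 13.4 against 15.2, 11.5 and 16.9 CPM (0.31, SE 0.16, adjusted p = 0.370 in the same test). The genotypes overlapped for both, with replicates 1 and 3 of Nipbl+/- high and replicate 2 inside the WT range. Since 60.4% of the stretches of Hspa1a and 62.3% of those of Hspa1b occur in another gene, mainly each other, the pair is best read as a sum, which was 19.7, 18.1 and 24.3 CPM in WT and 27.2, 19.8 and 31.2 in Nipbl+/- cultures. Leaving out 1 culture at a time moved the log2 fold change of Hspa1a between 0.17 and 0.55. Hspa4, a constitutive relative, was at 653, 696 and 665 against 671, 731 and 702 CPM (0.06).

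Hsph1 (HSP110), a heat-inducible exchange factor and disaggregation partner of HSP70, was on the other side of 0. Its level was 82.1, 88.6 and 67.4 CPM in WT and 71.7, 67.4 and 71.1 in Nipbl+/- cultures (log2 fold change -0.18, SE 0.09, adjusted p = 0.367 in the quasi-likelihood test). WT replicate 3 lay among the Nipbl+/- values, and without it the fold change was -0.29 with an adjusted p of 0.0787 in the same test, the smallest of any member in any of the alternatives run.

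Hsph1 and the mitochondrial chaperonin Hspd1 (HSP60) are the members whose RefSeq promoter windows (GRCm38.p6, 250 bases before to 50 after a start) hold a heat shock element, spelled here as GAA, TTC and GAA in turn or TTC, GAA and TTC in turn, each separated by 2 bases, on either strand. It was found in 0.603% of 32851 promoters. The RefSeq set used gave promoters for 59 of the members, 69 windows in all, and Hspa1a and Hspa1b had no such spelling in theirs. It held none for Hsp90aa1, Hsp90ab1 or Hspa9, among others, so those genes were not searched. The 2 sequences are shown because they carry the heat shock spelling, and capitals mark it. In Hspd1 a pair of overlapping matches makes a run.

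Hsph1 match, chr5:149636280-149636308, minus strand: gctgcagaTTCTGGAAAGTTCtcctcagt

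Hspd1 promoter, chr1:55087933-55088182, minus strand: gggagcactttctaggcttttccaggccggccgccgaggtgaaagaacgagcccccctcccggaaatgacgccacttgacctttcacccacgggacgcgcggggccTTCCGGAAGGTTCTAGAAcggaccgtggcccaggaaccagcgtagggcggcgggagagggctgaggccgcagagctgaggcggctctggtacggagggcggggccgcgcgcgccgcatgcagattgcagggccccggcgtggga

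The Hsph1 match lies after its RefSeq start, and the first Hspd1 match begins 144 bases before the RefSeq start used for Hspd1. In the deposited coordinates Hspd1 reaches to base 55088243, so there the Hspd1 match lies inside the gene. Hspd1 was at 664, 720 and 667 CPM in WT and 660, 729 and 715 in Nipbl+/- cultures (0.04), with overlapping genotypes and 44.8% of its stretches shared with pseudogenes. A match describes letters and no binding was measured here. The 4 listed regulators of the heat shock response were all on the plus strand and listed at 0.

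The remaining cytosolic genes of low level had the widest errors. Hspb2, a small heat shock protein of muscle, was at 2.50, 2.27 and 1.44 CPM in WT and 1.49, 1.57 and 0.812 in Nipbl+/- cultures (-0.67, SE 0.32, adjusted p = 0.328 in the quasi-likelihood test), which is 17 to 55 counts a culture. Its exons overlap Cryab on the opposite strand, and the library kit did not mark strand. Dnajb3 was at 2.50, 1.74 and 2.23 against 1.35, 1.30 and 1.81 CPM (-0.54, SE 0.24, adjusted p = 0.303 in the same test), and its genotypes overlapped by a narrow margin. At higher levels, Hspb8, a small heat shock protein that works with Bag3, was at -0.05, the general J protein Dnaja2 at -0.04, the histone-binding J protein Dnajc9 at 0.13 and the exchange factors Bag1 and Hspbp1 at -0.01 and -0.05 on the log2 fold change scale.

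All 10 tested ER chaperone genes had intervals inside 1.5-fold, beside 68.4% of all tested genes. Of the 10, 0 separated, where 12.0% of all tested genes separated upward and 10.8% downward. Their median average log2 CPM was 6.97, against 4.47 over all tested genes. The median size of their log2 fold change was 0.03, the same as the proteasome's 0.03 and below the 0.06 of the cytosolic chaperones. Hsp90b1 was at 1575, 1772 and 1664 CPM in WT and 1741, 1734 and 1625 in Nipbl+/- cultures (0.03, interval -0.10 to 0.15). Calr was at 1783, 1867 and 1886 against 1854, 1778 and 1796 CPM (-0.03, interval -0.12 to 0.07). Canx was at 1791, 1879 and 1970 against 1825, 1898 and 1798 CPM (-0.03, interval -0.14 to 0.08). Each of these 3 abundant genes overlapped between genotypes.

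Their promoters share a feature that the choice of members did not use. The ER stress response element, CCAAT and CCACG separated by 9 bases on either strand, occurs in 0.119% of the 32851 RefSeq promoters. Among members it was found in 3 of 9 ER genes with a promoter (Hsp90b1, Calr and Canx) and in 0 of 16 proteasome and 0 of 27 cytosolic genes. It is the sequence through which ATF6, a sensor of the unfolded protein response, acts on ER chaperone genes. The 250 bases before the start are shown for these genes because the element marks them as classic response genes, with matches in capitals, 2 of them in Hsp90b1.

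Hsp90b1 promoter, chr10:86705445-86705694, minus strand: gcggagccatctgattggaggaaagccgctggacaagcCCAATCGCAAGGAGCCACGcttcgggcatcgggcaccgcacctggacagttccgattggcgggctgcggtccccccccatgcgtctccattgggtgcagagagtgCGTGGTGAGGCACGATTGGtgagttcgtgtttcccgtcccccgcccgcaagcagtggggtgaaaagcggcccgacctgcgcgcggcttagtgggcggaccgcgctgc

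Calr promoter, chr8:84846932-84847181, minus strand: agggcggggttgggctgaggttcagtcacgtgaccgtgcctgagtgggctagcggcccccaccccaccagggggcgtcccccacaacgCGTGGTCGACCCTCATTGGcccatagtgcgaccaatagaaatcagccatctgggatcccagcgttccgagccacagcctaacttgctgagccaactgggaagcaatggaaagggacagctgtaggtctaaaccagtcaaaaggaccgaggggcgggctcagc

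Canx promoter, chr11:50325674-50325923, minus strand: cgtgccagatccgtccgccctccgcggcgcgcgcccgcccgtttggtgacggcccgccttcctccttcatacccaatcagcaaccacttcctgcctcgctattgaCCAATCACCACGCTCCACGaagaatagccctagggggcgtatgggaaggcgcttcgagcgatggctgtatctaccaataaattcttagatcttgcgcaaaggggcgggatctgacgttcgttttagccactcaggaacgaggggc

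The first matches in this direction begin 212 bases before the start in Hsp90b1, 162 in Calr and 145 in Canx. Another motif, the antioxidant response core TGAC and GC separated by 3 bases, which NRF factors that control proteasome genes can bind, was found in 12.4% of all promoters. It was in 9 of the 59 members with a promoter, and in 1 of the 16 proteasome genes among them (Psmb5).

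The disulfide isomerase Pdia4 was at 388, 403 and 402 CPM in WT and 404, 395 and 396 in Nipbl+/- cultures (0.00), and its relative Pdia5 at 108, 130 and 113 against 115, 128 and 123 (0.06). Dnajb9 (ERdj4), a J protein made under ER stress, was at 34.3, 32.4 and 31.0 against 33.8, 34.2 and 31.7 CPM (0.03). The lumenal HSP70 relative Hspa13 stood at 0.00 and Dnajc16 at 0.07. Dnajc1, a J protein of the ER membrane, was at 97.2, 101 and 103 CPM in WT and 69.3, 98.3 and 96.3 in Nipbl+/- cultures (-0.19, SE 0.12, adjusted p = 0.464 in the quasi-likelihood test). Nipbl+/- replicate 1 alone was low, and without it the log2 fold change was -0.05.

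In mitochondria, Hspa9 was at 1214, 1215 and 1290 CPM in WT and 1115, 1254 and 1167 in Nipbl+/- cultures (-0.07), and the genotypes overlapped. Dnajc4 was at -0.13 (SE 0.13), with 226 to 293 counts a culture, and Dnajc28 at 0.18 (SE 0.22), with 63 to 125. The nuclear J protein Dnajc17 and Psmc3ip each stood at 0.02.

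Lists of 114 related genes outside the name rule were read in the same fit, and 57 of them could be tested. Of those, 1 was called higher (1.75%, beside 1.04% of all tested genes) and 0 lower, and 9 (15.8%) had an unadjusted p under 0.05, beside 16.9% of all. These shares are near those of all genes. The called gene was Fkbp4 (FKBP52), a peptidyl-prolyl isomerase that rides on HSP90 in steroid receptor complexes. It rose from 101, 100 and 96.4 CPM in WT to 115, 125 and 126 in Nipbl+/- cultures (0.29, SE 0.06, adjusted p = 0.0422, quasi-likelihood test). The call was lost when any 1 culture was left out, with log2 fold changes from 0.27 to 0.33 and adjusted p-values from 0.0563 to 0.136 in the same test, and it was lost with the replicate number as a block (adjusted p = 0.0867).

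Its list, HSP90 and HSP70 partners, had 12 tested genes, of which 10 were above 0, with a median log2 fold change of 0.06. Sensors and factors of the unfolded protein response had 7 tested genes, 0 called and 2 above 0. The 1 of these with an unadjusted p under 0.05, named after its value was seen, was Ppp1r15a (GADD34), which directs the phosphatase of eIF2 alpha (-0.26, adjusted p = 0.0554 in the quasi-likelihood test). Other ER folding genes had 16 tested, 0 called and 7 above 0, and genes of ER-associated degradation 10 tested, 0 called and 6 above 0. Partners of ubiquitin and the proteasome had 11 tested, 0 called and 4 above 0, and prefoldin, which passes actin to TRiC, had 1 tested and 0 called. The number of genes with an unadjusted p under 0.05 was 2, 1, 3, 0, 2 and 1 in these 6 lists in the order given.

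Reads from overlapping or near-identical genes limit some of these values. Of the 66 tested members, 65 had a transcript in GENCODE M21 (mm10), 7 shared over 20% of their 50-base stretches with another gene, and 18 had exons that overlap a gene of the opposite strand. Among the latter were Psmb7 with Nek6, Psmb9 with Tap1, Dnajc1 with Mllt10 and Hspd1 with Hspe1.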

How the data were processed

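RNA was isolated at the third passage from 3 WT and 3 Nipbl+/- MEF cultures and depleted of rRNA, and libraries were made with a kit that does not mark strand. The authors aligned reads to mm10 with TopHat 2.0.10 and Ensembl 72 annotations and deposited a raw count per gene for each culture. Beside it, the authors deposited the RPKM of the gene, the count scaled by length and depth, used here only to compare levels between genes. The counting tool is not given in the sources used here, and it was not tested why plus-strand genes are at 0.

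Counts were filtered with filterByExpr (minimum count 10), normalized by TMM and tested with edgeR 4.0.16 (quasi-likelihood test, no covariates, R 4.3.3) over all genes, with Benjamini-Hochberg adjustment and a threshold of 0.05. A log2 fold change is Nipbl+/- against WT. Intervals are 95% intervals from the fit. Total counts were 20307454 to 25990783, and replicates of a genotype differed by more than counting error (chi-square per degree of freedom 9.51 to 32.3). Groups came from the labels, and coordinates are those of the files or RefSeq. The steps were tested on simulated counts.

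Named members are those with the highest and lowest fold change and the highest RPKM in each role, plus well-known genes of each family, and pathway genes past the threshold. Psmb7, Psma7, Psmg1, Hspa14, Hspa1b and Ppp1r15a were added after their values were seen. Members, roles, pathway lists and marker lists were chosen with earlier results of these data known. Alternatives were DESeq2 1.42.0, edgeR's exact test, other size factors, other filters, the replicate number as a block and each culture left out. The authors' other experiments were not analysed here.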

Additional observations from a re-analysis of the deposited data

How the results depend on the processing

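No member was called in either direction under any of the 14 alternatives, although DESeq2 gave no adjusted p for 1 member. Over all genes, 94 were higher and 83 lower in the fit reported, 142 and 70 with library size alone, 237 and 212 with DESeq2, 219 and 213 with the exact test, 173 and 152 without a filter on low counts, 34 and 52 with the block, and from 1 and 2 (without Nipbl+/- replicate 1) to 130 and 138 (without WT replicate 2) when a culture was left out. Depth limits the rarest members most, and Psmb9, at 10 to 20 counts a culture, had an SE of 0.33 on the log2 scale.

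The labels give both genotypes replicate numbers 1 to 3. Same-numbered cultures did not deviate together (correlations -0.06, -0.04 and -0.14, and 0 of 6 cultures correlated best with their own number). The numbers were therefore used as names of cultures, although so few correlations cannot show that the cultures are unpaired. With the replicate number as a block 0 members were called, the call of Fkbp4 was lost (log2 fold change 0.29), and Cct2 stood at -0.00056. Hspa1a, Hspa1b and Hspb2 had an unadjusted p under 0.05 in the quasi-likelihood test with that block, as did 16.9% of all tested genes.

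Library size alone moved the median log2 fold change of all tested genes from -0.01 to 0.03, and the median of the proteasome to 0.056, of the cytosolic chaperones to 0.092 and of the ER chaperones to 0.041. With upper-quartile normalization the proteasome median was 0.010. When a culture was left out it lay between 0.0029 and 0.029. Of 45 named members, 28 kept their sign throughout, and the other 17 lay within 0.06 of 0. With library size alone the log2 fold changes that turned were Bag1 0.030, Calr 0.0093, Canx 0.0063, Psmb1 0.025, Psmd5 0.0092, Psmd7 0.012, Psmf1 0.028. With upper-quartile normalization they were Cct2 -0.011, Hspa13 -0.0076, Pdia4 -0.0080. Cct2 also stood at -0.00085 with CPM above 1 as the filter, -9.9e-05 with DESeq2 and -0.00017 with its size factors. When a culture was left out, the log2 fold changes that turned ran over Hsp90b1 -0.017 to 0.070, Hspa13 -0.039 to 0.028, Dnajb9 -0.0060 to 0.065, Pdia4 -0.016 to 0.012, Canx -0.066 to 0.0036, Bag1 -0.067 to 0.032, Hspbp1 -0.13 to 0.0091, Cct2 -0.030 to 0.017, and over Psmc3ip -0.14 to 0.12, Dnajc17 -0.18 to 0.14, Psmd7 -0.079 to 0.033, Psmd8 -0.028 to 0.071, Psmb1 -0.026 to 0.0039, Psmf1 -0.060 to 0.038, Psmb9 -0.17 to 0.26, Psmd5 -0.098 to 0.0016. The cause was not tested. Psmb9 had no value under the filter of CPM above 1.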
